A study of Drosophila melanogaster with 4 samples.

Results

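H2Av regions of the X chromosome were taken as all significantly enriched regions that the authors placed on X in the list they made for their replicate set. That list is named the combined list in what follows. They numbered 841 of 4698 regions in that list (17.9%), and the choice used position alone. The list made from replicate 1 had 765 of its 4198 regions on X (18.2%), and that from replicate 2 had 747 of 4070 (18.4%). The cells were S2-DRSC, a Drosophila melanogaster line derived from late embryos and labelled male, and RNA interference against GFP, which has no target in the fly, had been applied to every culture with rounds of 50 and 200 µg of double-stranded RNA. Chromatin was fixed with formaldehyde, and antibody 9751, a rabbit polyclonal raised to a peptide and purified by affinity, was used to pull down H2Av. The samples were 2 immunoprecipitated and 2 input libraries, and no list of the inputs, other RNAi target or untreated culture was analysed here. No label says that the replicates came from separate cultures, so their spread may be technical.

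H2Av is the only H2A variant of this fly and does the work that H2A.Z and H2A.X do in other animals. It sits in nucleosomes of many active genes, most of all just downstream of their starts, and is found in heterochromatin as well. In male flies the MSL complex, built of proteins and of the roX RNAs, binds the X, spreads over its transcribed genes and acetylates histone H4 there, and transcription of the single X rises to match the paired autosomes. No measure of dosage compensation is in these files, so that the X was compensated in these cultures rests on the label of their sex. Positions are those of FlyBase release 5. Genes at these positions were not analysed here, since gene positions were at hand for release 6 alone. Widths, spacing, clustering and recovery on X were set beside 2L, 3L and 3R, the 3 long autosomal arms compared. There is 1 X and there are 2 replicate lists, and an exact permutation test of 1 arm against 3 cannot give a p below 0.25, so no test of X against the autosomes was made. Values of every arm and list are given instead, and the 95% Wilson intervals on shares of regions cover counting error only and treat regions as independent.

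The X carried more H2Av regions per megabase, and more covered sequence, than 2L, 3L or 3R in all 3 lists. X had 37.5 regions per Mb in the combined list, against 32.2 on 2L, 34.2 on 3L and 33.0 on 3R. The replicate lists gave 34.1 and 33.3 per Mb on X, or 33.7 ± 0.57 (SD, n = 2), and 29.9 ± 0.59 on the other 3 arms together. Taken within a list, the difference was 3.77 per Mb in replicate 1 and 3.802 per Mb in replicate 2. The covered share in the combined list was 18.8% of X, 16.2% of 2L, 15.1% of 3L and 15.3% of 3R. In replicate 1 these shares were 15.7% for X and 14.3%, 13.0% and 13.6% for the arms, and in replicate 2 they were 15.3%, 13.8%, 12.6% and 13.2%. The lowest X value of the replicates lay above the highest autosomal one for both measures. X was not the densest long arm, because 2R, which was not among the arms compared, had 41.6 regions per Mb and 20.4% of its sequence covered in the combined list.

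**Figure D1:**
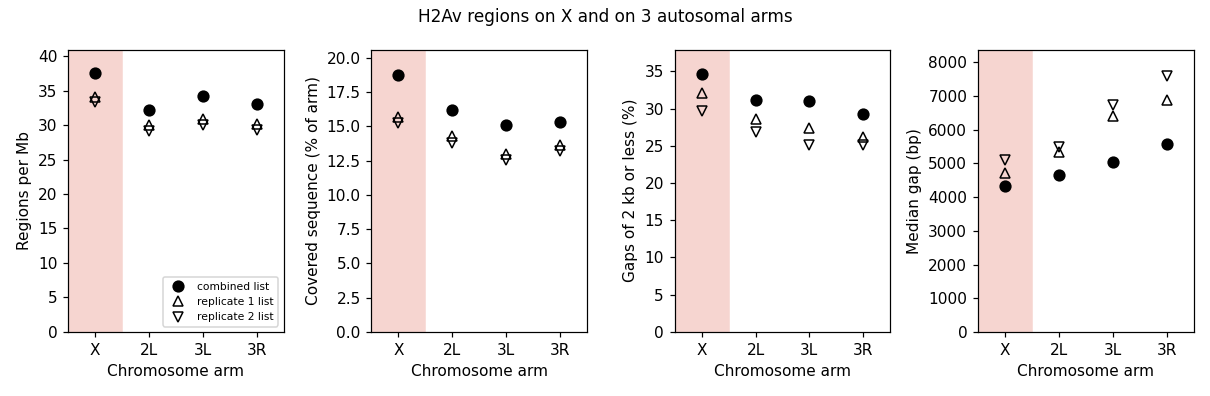
Number of H2Av regions per Mb, covered share of the arm in percent, share of gaps of at most 2 kb in percent and median gap in bp for X (shaded) and for 2L, 3L and 3R. Filled circles are the combined list and open triangles the replicate lists; X is highest in the first 3 panels and lowest in the last within each list.

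Compared with 2L, 3L and 3R, X had more low-scoring regions per Mb and more sequence covered by high-scoring regions in all 3 lists. The score is the authors' own value for each region, of unstated scale, and each list was divided at its median score over X, 4 and both arms of chromosomes 2 and 3, at 1.54 for the combined list, 1.71 for replicate 1 and 1.87 for replicate 2. Below it, X had 20.6 regions per Mb in the combined list against 16.8 on 2L, 16.6 on 3L and 14.1 on 3R. At or above it, X had 16.9 per Mb and lay between 2L at 15.3 and 3L and 3R at 17.6 and 18.9. The replicate lists gave 17.7 and 17.3 low-scoring regions per Mb on X, with none of the 3 other arms above 16.2. Their high-scoring regions numbered 16.5 and 16.0 per Mb on X, below 3R at 17.1 and 16.7 and above 2L and 3L. In the upper part of the combined list, 12.6% of X was covered, against 10.6% of 2L, 10.01% of 3L and 11.4% of 3R. In the replicate lists, their own regions at or above their own medians covered 10.4% and 9.81% of X, with 3R at 9.55% and 9.16%. On 2R, which was not among the arms compared, such regions covered 14.0% in the combined list and 11.7% and 10.6% in the replicate lists, more than on X in each, and low-scoring regions numbered 20.3 per Mb in the combined list and 18.9 in both replicate lists. Low-scoring regions of the combined list covered 6.11% of X, the most of the 4 arms, but 5.30% and 5.45% in the replicate lists, where 2L had 5.56% and 5.46%.

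Widths on X were spread further to both sides of a median that differed little from the autosomal ones. The median width was 3683 bp on X in the combined list, against 3616 bp on 2L, 3565 bp on 3L and 3745 bp on 3R. It was 3560 and 3619 bp on X in the replicate lists, 3589.5 ± 41.7 bp (SD, n = 2), and 3587.5 ± 12.02 bp on the other 3 arms together. The quartiles on X were 2105 and 6533 bp in the combined list. The lower quartile was below those of 2L, 3L and 3R, which ran from 2327 to 2647 bp, and the upper quartile was above theirs, which ran from 5348 to 6021.5 bp. In replicate 1 the X quartiles were 2457 and 5801 bp and in replicate 2 they were 2484.5 and 5760.5 bp, again the lowest and the highest of the 4 arms.

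High-scoring regions on X were broad. Among regions of the combined list that scored at least its median, the median width was 6195 bp on X (quartiles 4174 and 8984), 5371 bp on 2L, 4451 bp on 3L and 4685 bp on 3R. In replicate 1 it was 5085 bp on X, 4964 bp on 2L, 4153 bp on 3L and 4343 bp on 3R. In replicate 2 X and 2L had the same value within 1 bp, 4859 and 4858.5 bp, above 3L at 4064.5 bp and 3R at 4313.5 bp. The margin over 2L was therefore seen in the combined list and not in both replicate lists, while the margin over 3L and 3R was seen in all 3. Below the median score, widths on X were near the others in the combined list, at 2303 bp against 2315 to 2413 bp, and were the smallest of the 4 arms in the replicate lists, at 2501.5 and 2553 bp against 2673 to 2836 bp. Regions of at least 10 kb made up 84 of the 841 on X (9.99%) and 29.8% of its summed width. The corresponding shares of regions were 8.78% on 2L, 6.19% on 3L and 7.27% on 3R, and 2R had 10.2% of its regions and 30.003% of its summed width in this class. In the replicate lists 52 and 49 regions on X reached this width, 6.80% and 6.56%, close to 2L at 6.96% and 6.10%.

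**Figure D2:**
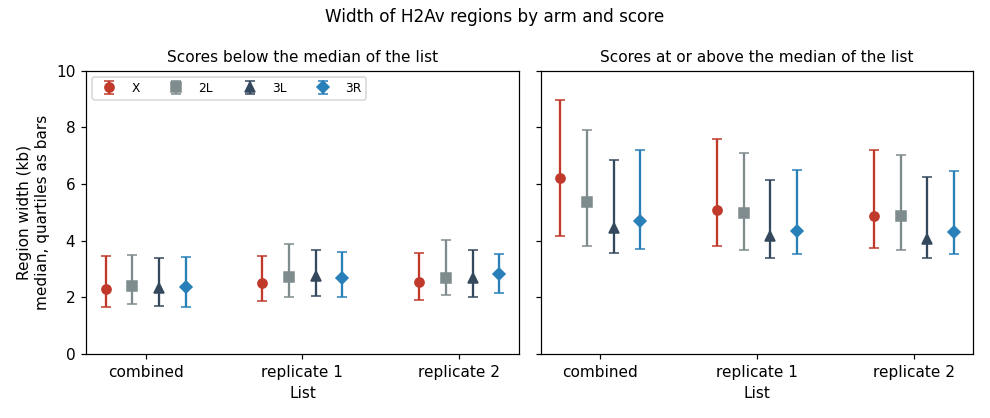
Median width in kb of H2Av regions on X, 2L, 3L and 3R in the 3 lists, with bars from the lower to the upper quartile, for regions below (left) and at or above (right) the median score of the list. On the right X stands highest in the combined list, at 6195 bp, and level with 2L at 4859 bp in replicate 2.

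Neighbouring regions lay closer together on X. The median gap, from the end of one region to the start of the next, was 4332 bp on X in the combined list, against 4653 bp on 2L, 5039 bp on 3L and 5587 bp on 3R. Replicate 1 gave 4722.5 bp and replicate 2 gave 5112.5 bp on X, a mean of 4917.5 ± 276 bp (SD, n = 2), against 6435 ± 283 bp on the other arms together. Within replicate 1 X was -1512.5 bp from the other arms, and within replicate 2 it was -1523 bp, so the replicates moved together. Within each list the gap on X was the shortest of the 4 arms, though the X value of replicate 2 lay above the 2L and 3L values of the combined list, which holds more regions. Gaps of at most 2 kb were 291 of 840 on X (34.6%, 31.5 to 37.9) and 31.1% on 2L, 31.0% on 3L and 29.2% on 3R, and the 95% intervals of these 3 arms all overlap that of X. The replicate lists gave 32.1% and 29.6% on X and at most 28.6% on the other arms. X had 52 gaps of at least 100 kb, 2.32 per Mb, against 2.30 on 2L, 2.36 on 3L and 2.40 on 3R. In the replicate lists such gaps numbered 2.72 and 2.54 per Mb on X, above the 2.32 to 2.47 and 2.35 to 2.49 of the other 3 arms. Such gaps took up 39.1% of X and between 41.6% and 45.5% of the other arms, and in replicate 1 the X value of 46.3% lay within the range of the other arms, 43.9% to 47.2%, while in replicate 2 the 43.6% of X lay below their 44.7% to 48.1%.

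Regions linked by gaps of at most 2 kb formed 180 runs on X, which held 471 of the 841 regions (56.0%, 52.6 to 59.3). The share in runs was 50.9% on 2L (47.3 to 54.5), 52.9% on 3L (49.5 to 56.2) and 49.2% on 3R (46.0 to 52.4). The intervals of 2L and 3L overlap that of X, and runs were described for the combined list alone. Runs of 4 or more regions numbered 25 on X, or 1.11 per Mb, against 0.83, 0.65 and 0.65 per Mb. The longest run on X by its span from first to last base lay from 15832366 to 15892828 in the sixteenth megabase, with 9 regions over 60.5 kb and 84.4% of that span covered. Scores within it ran from 0.47 to 2.03, 5 of its regions had a match in each replicate list and 2 had none. The next, from 8008954 to 8065322, joined 3 regions over 56.4 kb and was 95.7% covered, and all 3 were in both replicate lists. The following one lay again in the sixteenth megabase, from 15651256 to 15706352, with 5 regions over 55.1 kb, 91.3% covered.

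The longest stretch without H2Av regions on X in the combined list ran from 7219689 to 7572467, 352.8 kb in which replicate 1 had 1 overlapping region and replicate 2 none. The next ones ran from 12010537 to 12351183 (340.6 kb) and from 21505849 to 21844207 (338.4 kb), each overlapped by no region of replicate 1 and by 1 of replicate 2. Each of the other arms had a longer one, of 639581 bp on 2L, 420673 bp on 3L and 399121 bp on 3R.

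Along X, covered sequence changed by a factor of 3.86 between the emptiest and the fullest of its 22 complete 1-Mb bins. On 2L, 3L and 3R this factor was larger, at 19.9, 6.81 and 4.12. The bins of X are numbered from the first base of the arm, and the last 0.42 Mb was not counted among them. Coverage of X bins in the combined list ran from 8.86% to 34.2% with a median of 18.3%, and region counts ran from 19 to 71 with a median of 36.5. The fullest bin was the twelfth, with 71 regions and 34.2% covered, and replicates 1 and 2 covered 25.5% and 24.8% of it. The sixteenth came next with 48 regions and 33.1%, and it was the fullest in the replicate lists, at 29.7% and 28.9%. Of the 8 widest X regions 3 lay in this bin, and so did 2 of the 3 longest runs. Bin 2 followed with 52 regions and 27.1% (22.3% and 21.7% in the replicates). At the other end stood bin 13 with 21 regions and 8.86% (7.31% and 7.13%), bin 4 with 20 regions and 9.32% (8.01% and 7.57%) and bin 15 with 19 regions and 10.6% (8.99% and 9.05%).

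Full and empty bins stood side by side on X. Bins 11 to 16 had coverages of 13.2%, 34.2%, 8.86%, 22.5%, 10.6% and 33.1% in the combined list, so that each step crossed the median of the arm. Pearson's r between a bin and the next was -0.37 over the 21 neighbouring pairs of X, and 0.22, -0.073 and -0.021 on 2L, 3L and 3R. These are descriptions along 1 chromosome, whose neighbouring pairs share bins. With bins of 2 Mb the coefficient of variation of coverage fell to 15.6% on X, against 30.3% for the mean of the other 3 arms. With 1-Mb bins it was 36.4% on X, 58.2% on 2L, 38.6% on 3L and 37.7% on 3R. The mean of these 3 arms, 44.8%, thus lay above 3L and 3R and below 2L. The replicate lists gave 36.0% and 36.5% on X, and the values of 3L (34.6% and 34.2%) were then below it, so that X lay between 3L and 3R there and well below 2L in all 3 lists. On 2R, which was not among the arms compared, the value was below X in each list, at 33.8% in the combined list and 31.8% and 30.0% in the replicate lists. The spread between bins of X was far larger than that between replicates. The SD over bins of the replicate mean was 5.68 percentage points, and the median SD between the replicates in a bin was 0.42. Replicate 1 covered more of the bin in 18 of 22 bins, and the difference ran from -0.61 to 1.62 points. Across the 22 bins Spearman's rho of region count was 0.94 with coverage and 0.024 with median width, both given as descriptions of the combined list. With coverage it was 0.90, 0.96 and 0.96 on 2L, 3L and 3R. The incomplete last bin, nearest the centromere, held 11 regions in its 0.42 Mb, with 8.16% covered and a median score of 0.58.

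**Figure D3:**
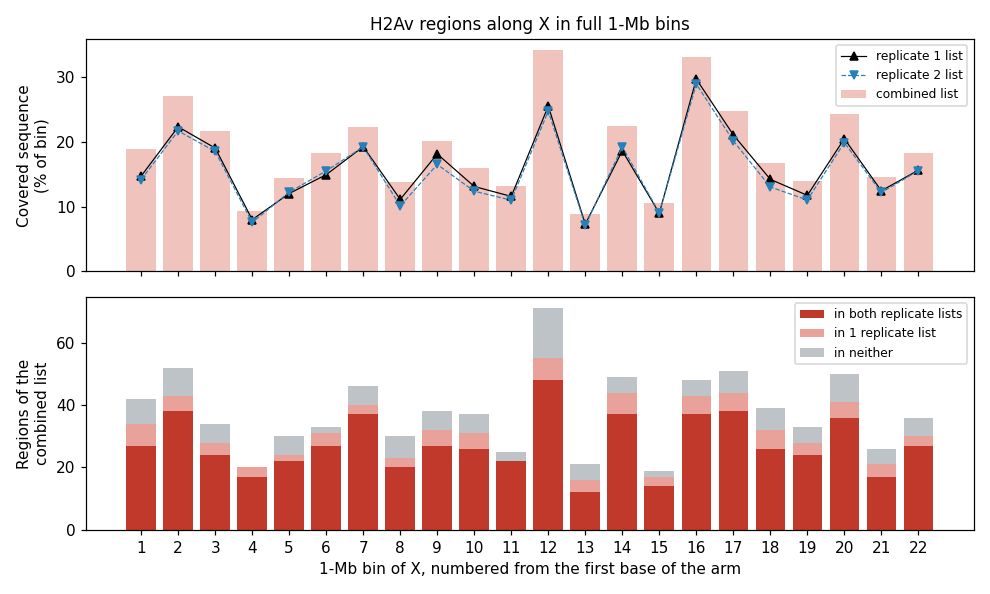
Share of each complete 1-Mb bin of X covered by H2Av regions in percent (top; bars for the combined list, lines for the replicate lists) and number of combined-list regions in each bin by the replicate lists that hold them (bottom). Bins 12 and 16 stand highest at 34.2% and 33.1%, with bins 13 and 15 beside them at 8.86% and 10.6%.

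The score below which 5% of regions lay was higher on X than on 2L, 3L and 3R in all 3 lists. X nevertheless had the largest share of combined-list regions below 1, at 40.1% against 37.7%, 35.1% and 30.7%. Its median score in that list was the lowest, at 1.42 against 1.47, 1.57 and 1.70. In the replicate lists the share below 1 on X lay between those of 3R and 3L. The single lowest score was highest on X in the combined list and replicate 1, but lowest in replicate 2, at 0.19. In the combined list 73 regions of X scored below 0.5 (8.68%), against 25.0% on 2L, 19.5% on 3L and 19.2% on 3R. Among complete bins, those with the lowest median scores of these 3 arms lay nearest the centromere. On 2L bins 22 and 23 held 55 and 86 regions with medians of 0.64 and 0.46. On 3L bins 23 and 24 held 35 and 72 with 0.57 each, and on 3R bin 1 held 49 with 0.87. The incomplete last bin of X held 11 with 0.58, but that of 3L, nearer the centromere than its bin 24, held 7 with 1.80. Scores were not compared with these bins left out. The score below which 5% of regions lay was 0.45 on X and 0.31, 0.37 and 0.34 on the arms. In the replicate lists this value was 0.72 and 0.68 on X, 0.70 ± 0.023 (SD, n = 2), against 0.52 ± 0.0051 on the other arms together, with 0.56 the highest value among 2L, 3L and 3R and 0.57 reached on 2R. In classes of 0.2, the lower peak of X in replicate 1 lay between 0.8 and 1 with 86 regions, and those of 2L, 3L and 3R lay at 0.4 to 0.6, 0.6 to 0.8 and 0.6 to 0.8. Replicate 2 gave the same 4 classes, with 66 regions at the peak of X. In the combined list, however, the lower peak of X lay at 0.4 to 0.6, as on 3L and 3R. The upper quartile of X was 1.98 in the combined list, against 2.01, 2.08 and 2.15, and it was 2.10 and 2.28 in the replicate lists, inside the autosomal ranges of 2.08 to 2.21 and 2.25 to 2.38. The lowest quartile of combined-list scores ended at 0.66 on X, at 0.51 on 2L, 0.56 on 3L and 0.60 on 3R.

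**Figure D4:**
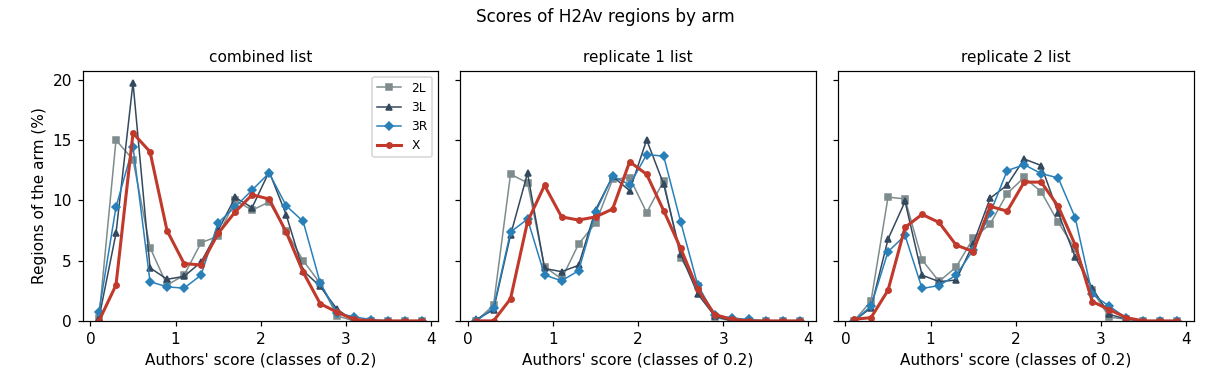
Share in percent of the H2Av regions of X, 2L, 3L and 3R in each score class of 0.2, in the 3 lists. In the replicate lists the lower peak of X (thick line) lies between 0.8 and 1, to the right of those of the other arms, while in the combined list it shares the class of 0.4 to 0.6 with 3L and 3R.

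Recovery of the X regions in the replicate lists was lower than on the autosomal arms. Of the 841 regions, 607 overlapped a region in both replicate lists by at least 1 bp (72.2%, 69.1 to 75.1), against 74.7% of all 4698 combined-list regions. On 2L the share was 78.6% (75.6 to 81.4), on 3L 77.9% (74.9 to 80.5) and on 3R 81.4% (78.8 to 83.8). The difference between X and these 3 arms together was -7.23 percentage points, for which no test was made. The share on X was also below the 76.9% of 2R. Another 59 regions of X were in replicate 1 only and 40 in replicate 2 only, together 11.8% against 9.32%, 7.50% and 6.08%. The remaining 135 were in neither list (16.1%, 13.7 to 18.7), beside 15.8% of all combined-list regions, which include the heterochromatic scaffolds. On 2L, 3L and 3R this share was 12.03%, 14.6% and 12.5%. The combined list was made for these same replicates, so recovery describes how the lists differ and is not separate support for a region.

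Low-scoring X regions made up nearly all of those missing from a replicate list. All but 4 of the 504 X regions that scored 1 or more were in both replicate lists (99.2%), beside 99.4% on the other 3 arms together. Between 0.5 and 1, 100 of 264 X regions were in both (37.9%, 32.2 to 43.9), against 83.0% (74.1 to 89.2) on 2L, 66.4% (58.0 to 73.9) on 3L and 80.2% (71.6 to 86.7) on 3R. In cells labelled male, X and the autosomes may differ in copy number, which was not measured here. An equal score therefore need not stand for equal evidence on X and on the other arms, and this was not tested. In finer classes, the X share was 10.8% between 0.5 and 0.6, 28.7% between 0.6 and 0.7 and 48.4% between 0.7 and 0.8. The 3 arms together had 60.6%, 88.6% and 88.1% there. From 0.8 to 1 the X share reached 81.0%, beside 84.4% for the 3 arms, and was then above that of 3L, 72.4%. In classes of 0.1, the last one with fewer than 50% of its regions in both lists was 0.7 to 0.8 on X and 0.4 to 0.5 on 2L, 3L and 3R, as it was on 2R. When regions were ranked within their own arm, X had the lowest share in both lower score quartiles, while 3L had it in the highest quartile (98.6% against 99.5% on X). In the next to lowest score quartile 76.2% of X regions were in both lists (70.0 to 81.4), and 89.7% on 2L, 89.0% on 3L and 98.7% on 3R. In the lowest quartile 13.7% were (9.74 to 19.04), and 24.9%, 24.3% and 27.7%, with 2R at 17.7% (13.2 to 23.3).

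**Figure D5:**
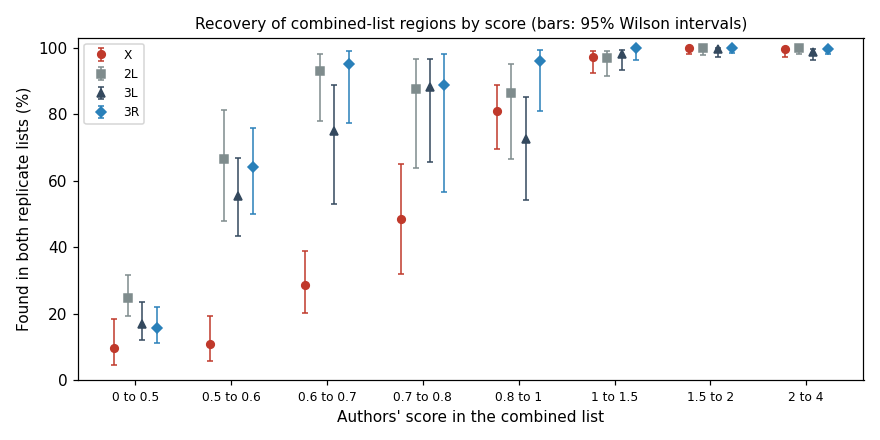
Share in percent of combined-list regions found in both replicate lists, by score class, for X, 2L, 3L and 3R, with 95% Wilson intervals that cover counting error only. Between 0.5 and 0.8 X lies at 10.8% to 48.4% and the other arms at 55.4% or more, and from 1 upwards all are at 97.0% or more.

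The lists also differed in their narrowest call. The narrowest region was 1001 bp in the combined list, 1301 bp in replicate 1 and 1304 bp in replicate 2. All coordinates of the combined list were even numbers and those of the replicate lists were not, and the cause was not tested. On X, 71 regions (8.44%) were narrower than 1301 bp, of which none was in both replicate lists and 66 were in neither. The other arms had 7.03%, 7.26% and 6.08% of such regions. There too none was in both, and 49 of 52 on 2L, 61 of 61 on 3L and 53 of 56 on 3R were in neither. Among the 770 X regions at least as wide as the narrowest replicate region, 78.8% were in both lists (75.8 to 81.6), against 84.6% on 2L, 84.0% on 3L and 86.7% on 3R. All 84 X regions of at least 10 kb and 203 of the 205 between 5 and 10 kb were in both. On the other 3 arms together all 184 and 574 of 577 were, so this was not particular to X. The regions in neither list had a median width of 1307 bp and a median score of 0.58 on X, beside scores of 0.38 to 0.45 on the other arms. Of those on X, 52 of 135 (38.5%, 30.7 to 46.9) lay within 2 kb of another region found in both lists. Of the 607 recovered X regions 268 did (44.2%, 40.3 to 48.1). The 2 shares were 34.8% and 40.9% on 2L, but 43.1% and 41.3% on 3L and 47.0% and 39.5% on 3R.

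The highest-scoring X region found in neither list lay from 16726 to 17726, near the first base of the arm, with a width of 1001 bp and a score of 2.18. The following ones by score were a region of 1003 bp from 11383142 to 11384144 with 1.43 and one of 1053 bp from 6328528 to 6329580 with 1.10. All 3 were narrower than any replicate call. The last stood alone, 60421 bp from the nearest region found in both lists. The widest in neither list were 3699 bp from 10123760 to 10127458, 3055 bp from 22280238 to 22283292 and 2899 bp from 1347060 to 1349958, with scores of 0.62, 0.58 and 0.58.

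The replicate lists themselves matched less closely on X. The sequence called in both made up 85.2% of that called in either on X, against 88.5% on 2L, 88.3% on 3L and 90.3% on 3R. Of the 765 X regions of replicate 1, 688 overlapped replicate 2 (89.9%, 87.6 to 91.9), and of the 747 of replicate 2, 699 overlapped replicate 1 (93.6%, 91.6 to 95.1). The other 3 arms together gave 92.9% (91.8 to 93.9) and 96.7% (95.9 to 97.4). Edges of matched regions were further apart. Over 660 X pairs that were each other's largest overlap, the median distance was 137 bp between starts and 146.5 bp between ends, while 2L, 3L and 3R had 79.5 to 90.5 bp and 78 to 88 bp. The scores of these pairs differed between replicates with an SD of 0.204 on X and of 0.154 to 0.155 on the other arms. Replicate 2 had the higher score in 72.6% of the X pairs, and in 77.2% on 2L, 75.2% on 3L and 80.7% on 3R. The median difference was 0.11 on X and 0.11, 0.12 and 0.13 on these arms. Spearman's rho between the replicate scores was 0.95 on X and 0.97 to 0.98 on the other arms, across regions that share libraries and are not independent. Sequence present in the combined list and in neither replicate list came to 0.48 Mb of X, 11.4% of its combined-list sequence, against 8.52%, 10.3% and 8.57%.

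Some combined-list regions of X were cut into several in a replicate list, a larger share than on 2L, 3L or 3R. Such cuts were seen in 88 of 841 X regions in replicate 1 (10.5%, 8.57 to 12.7) and 90 in replicate 2 (10.7%, 8.79 to 13.0). On 2L the shares were 6.89% and 6.76%, on 3L 6.19% and 6.07% and on 3R 4.56% and 5.75%. On 2R, which was not among the arms compared, they were nearer to X, at 8.86% (7.16 to 10.9) and 8.41% (6.75 to 10.4). In both replicates 55 X regions were split (6.54%), and 123 in at least 1 of them, while 5.91% of 2R regions were split in both. Among the 84 regions of at least 10 kb, 38 were split in replicate 1 and 43 in replicate 2, 45.2% and 51.2%. On 3L 46.2% and 57.7% of regions that wide were split, so that the X share was not the highest at this width. The region with the most pieces, from 7780568 to 7808610, had 4 regions of replicate 1 and 3 of replicate 2 over its 28.0 kb, and these covered 96.9% and 90.7% of it. The region from 1577710 to 1592904, 15.2 kb wide with a score of 1.27, was less filled, with 3 pieces over 72.7% of it in replicate 1 and 2 over 84.7% in replicate 2. That from 1963182 to 1975396 also had 3 and 2 pieces, over 97.5% and 93.8% of its 12.2 kb. These last 2 were taken for their lower start among 16 X regions whose larger number of pieces in a replicate list was 3. Of these 16, 3 had 3 pieces in both lists and were singled out after their values were seen, from 11879698 to 11894482, from 13069392 to 13089740 and from 19485756 to 19503030.

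The 8 widest regions of X measured 22.3 to 31.1 kb, and each was in both replicate lists. The widest, from 8034222 to 8065322, had a score of 2.22 and was covered to 93.0% by 3 regions of replicate 1 and to 91.7% by 2 of replicate 2. The one from 1748268 to 1776492, 28.2 kb with a score of 2.32, was called as a single region in both, over 98.9% and 99.3% of its length. It was the only one of the 8 called whole in both lists. Next in width after the much divided 28.0 kb region was that from 2133430 to 2158782 (25.4 kb, score 2.00), with 2 pieces in each list. Of the remaining 4, 3 lay within the sixteenth megabase, from 15462300 to 15487164 with 24.9 kb and a score of 2.22, from 15662486 to 15686384 with 23.9 kb and 1.83, and from 15363086 to 15385738 with 22.7 kb and 1.91. The last, from 21474280 to 21496552, was 22.3 kb wide with a score of 2.48 and stood near a stretch of 338.4 kb without regions. The widest regions of 2L and 3L were larger, at 35.3 and 41.2 kb, and that of 3R was smaller, at 26.8 kb.

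The 8 highest-scoring regions of X scored 2.78 to 3.11 and were 3.28 to 15.4 kb wide, and each was a single region in both replicate lists. The first, from 19544478 to 19547756, had a combined score of 3.11 over 3.28 kb, with 3.07 and 3.21 in replicates 1 and 2. The second, from 11260700 to 11265544, scored 2.97, 2.99 and 3.07 over 4.85 kb in the twelfth and fullest bin. Bin 20 held 3 of the 8, the first one and those from 19370868 to 19376144 (2.84) and from 19413116 to 19418576 (2.78). Bin 18 held 2, from 17491060 to 17495486 with 2.86 and from 17741342 to 17756692 with 2.83, the latter 15.4 kb wide. Close to these in score were the 13.6 kb region from 20052548 to 20066142 with 2.87 and the 7.37 kb region from 536476 to 543846 with 2.84. None of them was among the 8 widest. All 8 scored higher in replicate 2 than in replicate 1, as did 72.6% of matched X regions and 77.8% of those on 2L, 3L and 3R together.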

How the data were processed

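Enriched regions from H2Av chromatin immunoprecipitation and sequencing of S2-DRSC cells were deposited as 3 lists, 1 for each of the 2 immunoprecipitated libraries and 1 for the replicate set. Libraries were grouped and numbered by title, since the descriptions of immunoprecipitation replicate 2 and input replicate 1 contradict the titles. The submitters' processing notes name Bowtie 0.12.7, and the build was FlyBase release 5 per the file headers. How peaks were called and how the replicates were joined are not given in these sources. The authors deposited a score for each region on an unstated scale, which served to describe and rank. The other deposited columns used were start and end. No file gives reads, so depth is unknown.

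Widths, gaps, coverage and 1-Mb bins (regions assigned by midpoint) were computed with Python 3.11.15, pandas 2.3.3, NumPy 2.4.6 and SciPy 1.17.1, and matplotlib 3.10.9 drew the figures. An overlap of 1 bp counted as shared. A single record of depletion in replicate 2 was left out. The interval functions were tested on simulated data. Named on X were the 8 widest and 8 highest-scoring regions, the 3 highest-scoring and 3 widest found in neither replicate list, the 3 with the most pieces in a replicate list (ties to the lower start), the 3 longest gaps and runs, and the 3 fullest and 3 emptiest bins. Members, measures and lists were chosen with earlier results of these data known. Score classes, minimum widths, divided regions and edge distances were chosen after seeing the data.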

Additional observations from a re-analysis of the deposited data

Results flagged for a closer look

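The comparisons of X left out XHet, the assembly's heterochromatic X sequence. The combined list placed 13 regions there, and the replicate lists 8 and 9. They covered 25.8% of XHet in the combined list, and 18.4% and 16.9% in the replicate lists, with a median combined score of 0.79.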

How the results depend on the processing

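Each value here is that of X minus that of 2L, 3L and 3R. The reported differences were 4.36 regions per Mb, 10 bp of median width, -683 bp of median gap, 3.24 points of covered share, 4.26 points of close gaps, -8.46 points of bin variation, -7.23 and 2.98 points found in both and in neither replicate list, and -3.87 points of replicate overlap. Of 63 alternatives, 58 kept the sign. With regions at or above the median score, 4 reversed: -0.50 per Mb, a gap of 2889 bp, and 0.12 and -0.12 points for both and neither. The others were then 1434 bp of width, 1.96 points covered, 0.15 points of close gaps, -2.78 points of bin variation and -5.58 points of overlap. The cause was not tested. A replicate list in place of the combined one gave 3.77 to 3.802 per Mb, -1523 to -1512.5 bp of gap, 2.09 to 2.10 points covered and -6.28 to -5.58 points of bin variation, and the width difference ran from -19 to 23 bp. Merging regions within 200 bp gave 3.94 per Mb, 126 bp of width and -903 bp of gap. Adding 2R gave 2.51 per Mb, -577 bp of gap, 2.17 points covered, -5.71 points of bin variation and -3.41 points of overlap. Leaving out the proximal 1.5 Mb gave 6.47 per Mb, -876 bp of gap, 4.36 points covered, 6.08 points of close gaps, -2.96 points of bin variation and -4.88 points of overlap. Bin variation was -10.3 points with 0.5 Mb bins, -14.7 with 2 Mb bins and -11.8 with bins shifted by 0.5 Mb. Close gaps differed by 2.81 points at 1 kb and 4.96 at 5 kb. The minimum width was an alternative chosen after seeing the data, and recovery kept its direction with it. No paired analysis was possible because the results come from no test and no input list was used. X and the other arms of a replicate share a list, and the differences given for each replicate list are within it. Scores carry no depth, and 2 lists limit every spread given here.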
